A study of Mus musculus with 6 samples.

Results

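The B and plasma cell genes described here are 30 named genes of the B lineage, among 20687 gene symbols measured and 15212 tested. They encode the B cell receptor, switched and secreted immunoglobulin, B lineage transcription factors, signalling proteins and surface molecules. Each was found by its symbol after transcripts were matched to genes, and all 30 passed the filter on low counts. RNA sequencing was done on mouse samples of strain C57BL/6, 3 of whole lung and 3 of the KP cell line. Mice received 100000 KP cells through the tail vein and lungs were taken at day 28, with the lungs of 3 mice pooled in each lung sample and 1 sample from each of 3 experiments. The genotype of the KP line was not given in the labels, the labels listed the cell line samples as triplicates without naming separate cultures, and no lung free of KP cells was among the samples analysed here. P-values therefore rest on a spread that, for the cell line, may be technical.

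A B cell carries a membrane immunoglobulin paired with the signalling chains CD79A and CD79B, and its identity is held by transcription factors such as PAX5 and EBF1. After activation it can switch the heavy chain from IgM and IgD to IgG or IgA, and plasma cells secrete the antibody in large amounts, with the J chain joining IgM and IgA into polymers. In lung, B cells are known from lymphoid aggregates and the blood, and IgA is the main antibody of the airway surface.

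Estimated counts came to between 17786758 and 22862396 per sample, and 3 counts, the most that a count of 0 allows, came to 0.131 to 0.169 CPM, the unit of counts relative to library size. Levels below are CPM on library sizes scaled by the trimmed mean of M values (TMM), and intervals and floors cover counting error only. Over the genes tested, the correlation of log2 levels was 0.991 for cell line replicates 2 and 3, and 0.964 or 0.965 for replicate 1 with either of them. Lung replicate 2 stood apart from lung replicates 1 and 3, and it deviated by transcript length. Against the other lung samples, the median gene of the shortest length quartile was 0.70 log2 units higher in it and that of the longest was 0.97 log2 units lower (log2 difference -0.97). Of the 30 genes, 17 were in the shortest quartile. Their median excess in lung replicate 2 was 0.88 log2 units there and between 0.50 and 0.57 in the other length quartiles. The part of transcript length in the values of that sample was not tested further.

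The labels were checked against marker genes. Summed over 10 alveolar and airway genes, the level was 21600, 32540 and 27230 CPM in lung and between 1.53 and 2.30 CPM in the cell line, where Sftpa1, Sftpd and Scgb3a2 were at 0 in all 3 samples. Summed over the 30 B and plasma cell genes, the level was 1063, 2053 and 1249 CPM in lung replicates 1, 2 and 3. In the cell line it was 559, 525 and 306 CPM, so libraries labelled as a tumour line held 31.9% of the lung level of these genes. They also held a set of T cell genes at 44.0 to 58.8 CPM in sum, against 377 to 418 CPM in lung, and Tcf7 alone gave 15.1, 21.6 and 20.8 CPM of the cell line sums.

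All but 1 of the B and plasma cell genes rose in whole lung over the cell line. With edgeR's quasi-likelihood test and an adjusted p under 0.05, 29 of 30 were higher in lung, against 31.3% of all genes tested, and 0 were lower, against 17.5%. The exception was Ighg1, the constant region of IgG1 antibodies. In the same 29 genes every lung sample lay above every cell line sample, which held for 35.6% of all genes tested. The median log2 fold change of the 30 genes was 1.73, against 0.08 over all genes tested, and 23 of them were under 2. The summed level averaged 1455 ± 526 CPM (SD, n = 3) over the lung samples, against 463 ± 138 CPM over the cell line samples, a ratio of 3.14. Leaving out cell line replicate 3, the lowest of that group for all 30 genes, lowered the count to 18 higher in lung, against 27.2% of all genes. In these bulk samples the number of cells and the RNA per cell cannot be told apart. The source of these transcripts in the cell line libraries was not tested.

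**Figure D1:**
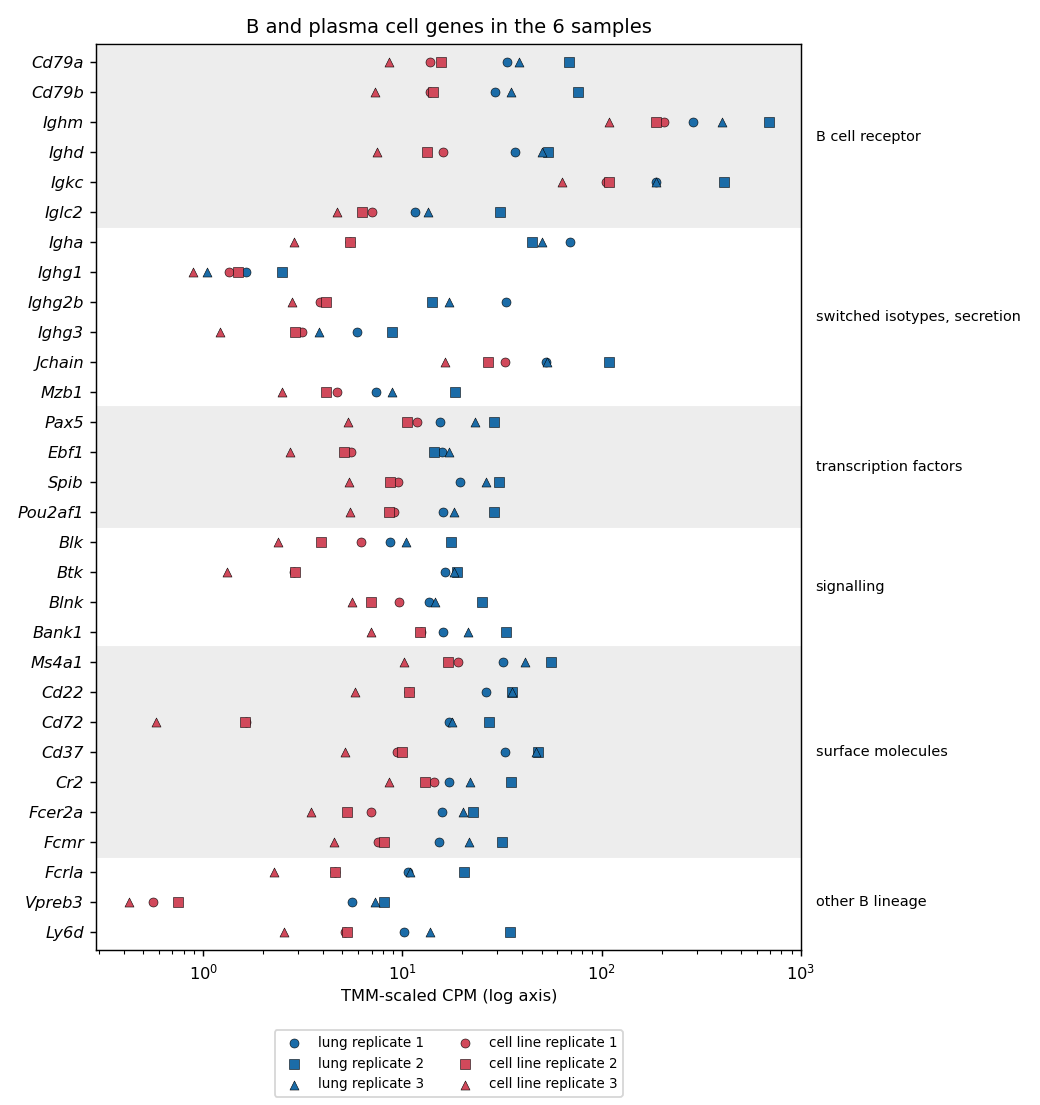
Level of each of the 30 genes in the 6 samples, in TMM-scaled CPM on a log axis, with lung in blue, the cell line in red and a marker shape for each replicate number. Lung lies right of the cell line for every gene except Ighg1. Cell line replicate 3 is the lowest point of each row, and lung replicate 2 is the highest lung point in 27 rows. Shares of all genes with these replicates lowest or highest are not given here.

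The B cell receptor genes gave most of the signal. Ighm, the constant region of IgM, was at 289, 696 and 403 CPM in lung and at 205, 187 and 109 CPM in the cell line. All lung samples were above all cell line samples, and lung replicate 2 was the highest. The log2 fold change was 1.47 (SE 0.41, edgeR adjusted p = 0.0176). Igkc, the constant region of the kappa light chain, was at 188.5, 414 and 188 CPM in lung and at 106, 108.5 and 63.3 CPM in the cell line. Again the groups did not overlap, with cell line replicate 3 the lowest, and the log2 fold change was 1.51 (SE 0.40, adjusted p = 0.0144). Both calls rested on cell line replicate 3. Without it, the edgeR adjusted p was 0.077 for Ighm, 0.0641 for Igkc and 0.0559 for Iglc2, a lambda light chain constant region. The log2 fold changes were then 1.18, 1.24 and 1.42. Without lung replicate 2 the log2 fold changes were lower, at 1.0, 0.97 and 1.0, while the calls held (edgeR adjusted p = 0.0352, 0.0188 and 0.0193). Ighm and Igkc together made up 44.9% to 54.1% of the summed level of the 30 genes in lung and 55.5% to 56.5% in the cell line.

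The signalling chains of the receptor and IgD moved with similar sizes. Cd79a was at 33.6, 68.7 and 38.4 CPM in lung and at 13.8, 15.7 and 8.51 CPM in the cell line. Cd79b was at 29.3, 75.8 and 35.0 CPM in lung and at 13.8, 14.2 and 7.27 CPM in the cell line. For both chains the groups were separate, and lung replicate 2 was well above lung replicates 1 and 3. Their log2 fold changes were 1.89 (SE 0.37, edgeR adjusted p = 0.00354) for Cd79a and 1.99 (SE 0.44, adjusted p = 0.00658) for Cd79b. Ighd, the constant region of IgD on naive B cells, was at 36.8, 54.1 and 50.2 CPM in lung and at 15.9, 13.3 and 7.45 CPM in the cell line, a log2 fold change of 1.94 (SE 0.34). On the TPM scale, where counts are divided by transcript length, Igkc was the most abundant of the 30 genes in both groups, with means of 860 TPM in lung and 309 TPM in the cell line, and Ighm was next with 517 and 193 TPM.

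Switched and secreted immunoglobulin held both the smallest and some of the largest differences. Igha, the constant region of IgA, was at 69.7, 44.9 and 50.3 CPM in lung and at 5.46, 5.45 and 2.85 CPM in the cell line. Here lung replicate 1 was the highest, and the lowest lung sample was far above the highest cell line sample. The log2 fold change was 3.58 (SE 0.36, edgeR adjusted p = 0.000123), and the cell line mean was 8.34% of the lung mean. By TPM, Igha ranked 3 of the 30 genes in lung and 13 in the cell line. Ighg2b, an IgG constant region, was at 33.2, 14.03 and 17.2 CPM in lung and at 3.87, 4.16 and 2.79 CPM in the cell line. Again replicate 1 was the highest lung sample, and Ighg2b rose by a log2 fold change of 2.57 (SE 0.40, adjusted p = 0.00108).

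Ighg1 was at 1.64, 2.49 and 1.04 CPM in lung and at 1.35, 1.497 and 0.889 CPM in the cell line. These values overlapped, at 17 to 56 counts per sample, and its log2 fold change was 0.46 (SE 0.48, edgeR adjusted p = 0.451). Ighg3, another IgG constant region, was at 5.92, 8.82 and 3.79 CPM in lung and at 3.13, 2.88 and 1.21 CPM in the cell line. The groups were separate by a small margin and the call was close to the threshold, with a log2 fold change of 1.36 (SE 0.49, adjusted p = 0.0483). Leaving out any 1 sample except lung replicate 3 ended this call, with edgeR adjusted p between 0.0558 and 0.148, and so did testing with no filter on low counts (0.0529). Jchain, which joins antibody units into polymers, was at 52.4, 109 and 53.3 CPM in lung and at 32.7, 27.0 and 16.5 CPM in the cell line. Mzb1, an endoplasmic reticulum protein that helps antibody secretion, was at 7.35, 18.4 and 8.84 CPM in lung and at 4.71, 4.13 and 2.47 CPM in the cell line. Both genes rose, by log2 fold changes of 1.49 and 1.60, and without cell line replicate 3 their edgeR adjusted p was 0.0585 and 0.0686. Because immunoglobulin genes share near-identical stretches, the split of reads between single constant or variable genes is uncertain.

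The 4 transcription factors all rose, by log2 fold changes of 1.28 to 1.83. Ebf1, which sets B lineage commitment early, was at 15.8, 14.4 and 17.2 CPM in lung and at 5.51, 5.07 and 2.74 CPM in the cell line. Among the 30 genes it alone had its highest lung value in replicate 3, and it rose by 1.83 (SE 0.33, edgeR adjusted p = 0.00245). Its lowest lung value was in replicate 2, as for Igha and Ighg2b. Summed fibroblast and pericyte genes were also lowest there, at 1191 CPM against 2933 and 3147 CPM in lung replicates 1 and 3. Which lung cells gave the Ebf1 level was not tested. Pax5, which maintains B cell identity, was at 15.5, 29.0 and 23.2 CPM in lung and at 11.9, 10.5 and 5.32 CPM in the cell line. The lowest lung sample and the highest cell line sample were close, and the log2 fold change was 1.28 (SE 0.38, adjusted p = 0.0235). Pax5 missed the threshold without lung replicate 2, cell line replicate 2 or cell line replicate 3, at edgeR adjusted p of 0.0684, 0.0554 and 0.0821. Spib, a factor of the ETS family, had log2 fold change 1.69 (SE 0.32, adjusted p = 0.00281). Pou2af1, the coactivator of octamer-binding factors, had log2 fold change 1.44 (SE 0.34, adjusted p = 0.00821).

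Among the signalling proteins, Btk stood out in size. This kinase acts downstream of the receptor in B cells and is also present in myeloid cells. It was at 16.3, 18.7 and 18.2 CPM in lung and at 2.85, 2.88 and 1.317 CPM in the cell line. The lung samples were close to each other and far above the cell line, with a log2 fold change of 2.91 (SE 0.37, edgeR adjusted p = 0.000369). Blk, a kinase of the Src family, Blnk, the adaptor that links the receptor to its effectors, and Bank1, a B cell scaffold, rose by log2 fold changes of 1.55, 1.27 and 1.16. Without lung replicate 2, the edgeR adjusted p was 0.0596 for Blk and 0.0789 for Bank1. It was 0.0646, 0.0711 and 0.0637 for Blk, Blnk and Bank1 without cell line replicate 2. Without cell line replicate 3 it was 0.0684, 0.0792 and 0.118.

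All 7 surface molecules rose. Cd72, an inhibitory coreceptor, was at 17.1, 27.2 and 17.76 CPM in lung and at 1.63, 1.61 and 0.580 CPM in the cell line. No cell line sample came near the lung values, and its log2 fold change of 4.01 (SE 0.46, edgeR adjusted p = 0.000225) was the highest of the 30 genes. Its cell line mean was 6.16% of the lung mean. Cd37, a tetraspanin of leukocytes, was at 32.8, 47.9 and 47.1 CPM in lung and at 9.38, 9.91 and 5.13 CPM in the cell line. It rose by 2.39 on the log2 scale (SE 0.33, adjusted p = 0.000637). Ms4a1, which encodes the B cell antigen CD20, was at 32.1, 55.8 and 41.5 CPM in lung and at 19.0, 16.9 and 10.1 CPM in the cell line. This came to a log2 fold change of 1.49 (SE 0.33, adjusted p = 0.00658).

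The other surface molecules ranged more narrowly. Cd22, an inhibitory receptor for sialic acid, was at 26.3, 35.7 and 35.4 CPM in lung and at 10.8, 10.8 and 5.80 CPM in the cell line, a log2 fold change of 1.83 (SE 0.32, edgeR adjusted p = 0.00197). Fcer2a, the low-affinity IgE receptor, and Fcmr, the receptor for IgM, rose by 1.90 and 1.77. Cr2, the complement receptor of mature B cells and follicular dendritic cells, had the smallest change among genes past the threshold. It was at 17.1, 35.2 and 21.9 CPM in lung and at 14.5, 13.0 and 8.59 CPM in the cell line. The groups were separate by a small margin, and the log2 fold change was 1.04 (SE 0.35, adjusted p = 0.0379). Cr2 missed the threshold without lung replicate 2 or 3 or cell line replicate 2 or 3, at edgeR adjusted p of 0.0927, 0.0547, 0.0978 and 0.151.

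Of the 3 remaining B lineage genes, Vpreb3, a B lineage protein that associates with immunoglobulin chains inside the cell, was at 5.55, 8.05 and 7.26 CPM in lung. In the cell line it was at 0.560, 0.749 and 0.422 CPM, from 12, 13 and 8 counts. Lung was above the cell line in every sample, with a log2 fold change of 3.58 (SE 0.41, edgeR adjusted p = 0.000203). Fcrla, an intracellular relative of Fc receptors, rose by 1.87 (SE 0.41, adjusted p = 0.00646). Ly6d, a surface protein of early lymphoid cells, was at 10.2, 34.6 and 13.8 CPM in lung and at 5.13, 5.24 and 2.53 CPM in the cell line. Lung replicate 2 was the highest by a wide margin. The ratio of group means of Ly6d was 4.54 with that sample and 2.79 without it, and the log2 fold change was 2.18 (SE 0.53, adjusted p = 0.00969).

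**Figure D2:**
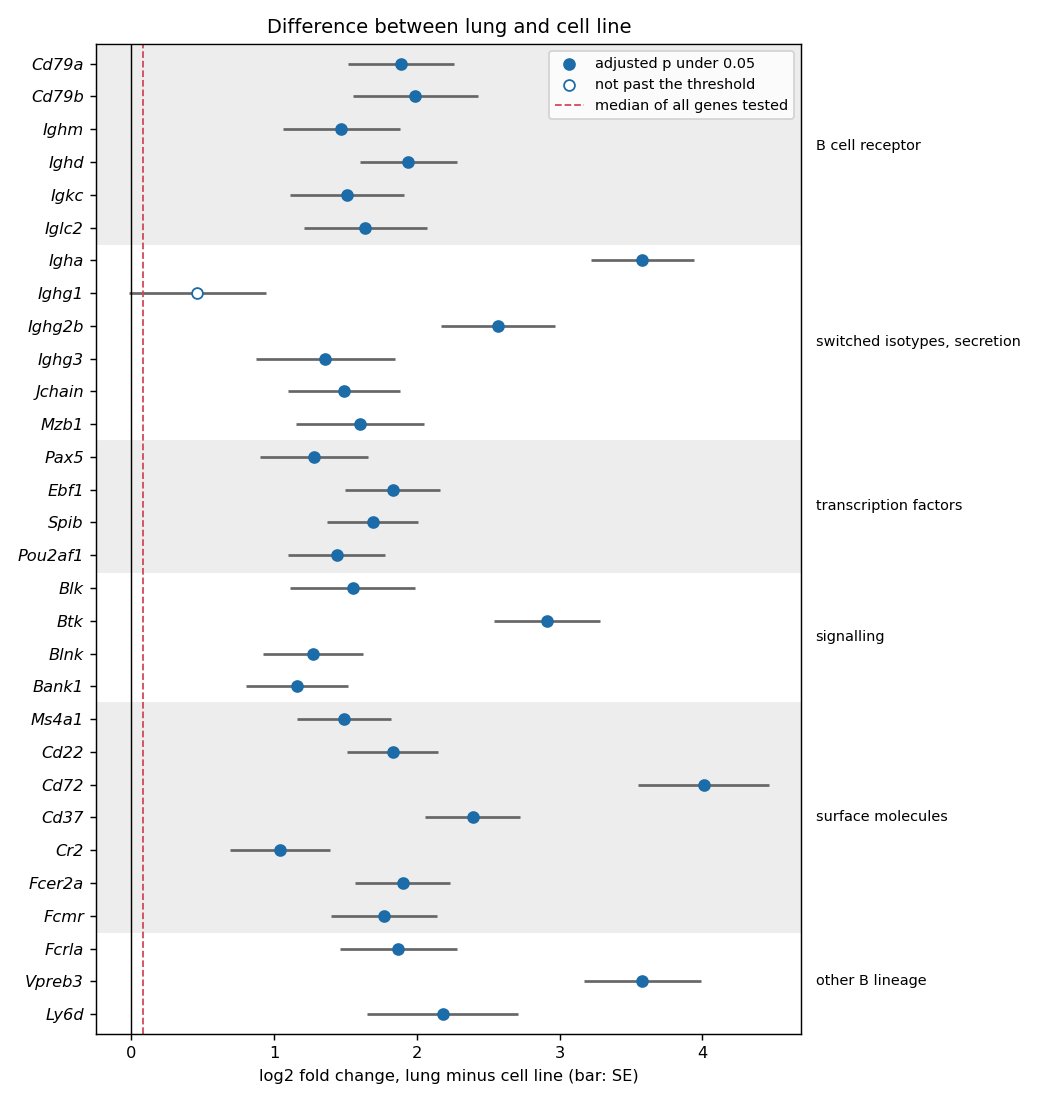
Log2 fold change of each gene, lung minus cell line, with bars of 1 standard error. Cd72, Igha, Vpreb3 and Btk lie at 4.01, 3.58, 3.58 and 2.91, most other genes lie between 1 and 2, and the open point is Ighg1. The dashed line marks the median of all genes tested, 0.08.

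The level of the cell line relative to lung therefore differed between genes. It was 6.16% for Cd72, 8.30% for Vpreb3, 8.34% for Igha, 13.3% for Btk, 16.8% for Ighg2b and 19.1% for Cd37. For the others with a call it ran from 22.0% for Ly6d to 48.6% for Cr2, and for Ighg1 it was 72.4%. By TPM, Vpreb3 ranked 16 of the 30 genes in lung and 30 in the cell line, and Cd72 ranked 12 and 26.

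Promoters of 17 of the 30 genes were held in the RefSeq table (build GRCm38.p6), each as 300 bases from 250 before to 50 after the start. They were searched on both strands for the octamer ATGCAAAT, read by the factors that Pou2af1 assists, and for CCCNNGGG, the core read by EBF1. The motifs do not overlap in any window shown. Vpreb3 and Blnk held the octamer, found in 1.97% of the 27025 symbols with a promoter in the table. Bank1, Cd22 and Spib held the EBF1 core, found in 15.4% of those symbols. The windows of Vpreb3 (chr10:75948050-75948349, plus strand), Blnk (chr19:40994172-40994471, minus strand) and Cd22 (chr7:30878979-30879278, minus strand) are shown, the first 2 as the genes with the octamer and the last as an example of the EBF1 core. Cell line levels of these genes were 8.30%, 41.4% and 28.2% of lung. Capitals mark the motif, which reads as the reverse complement in the windows of Vpreb3 and Blnk.
Vpreb3: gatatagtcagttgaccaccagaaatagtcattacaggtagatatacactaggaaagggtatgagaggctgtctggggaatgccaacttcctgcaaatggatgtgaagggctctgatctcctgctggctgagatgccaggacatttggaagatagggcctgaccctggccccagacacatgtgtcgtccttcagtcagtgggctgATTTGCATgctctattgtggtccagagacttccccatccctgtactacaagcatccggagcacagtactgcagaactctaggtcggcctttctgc
Blnk: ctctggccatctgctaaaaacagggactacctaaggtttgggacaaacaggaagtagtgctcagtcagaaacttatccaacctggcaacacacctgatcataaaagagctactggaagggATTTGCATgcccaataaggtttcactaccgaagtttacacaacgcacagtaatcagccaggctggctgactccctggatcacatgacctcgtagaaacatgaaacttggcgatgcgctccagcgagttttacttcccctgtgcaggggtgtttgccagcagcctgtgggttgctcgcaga
Cd22: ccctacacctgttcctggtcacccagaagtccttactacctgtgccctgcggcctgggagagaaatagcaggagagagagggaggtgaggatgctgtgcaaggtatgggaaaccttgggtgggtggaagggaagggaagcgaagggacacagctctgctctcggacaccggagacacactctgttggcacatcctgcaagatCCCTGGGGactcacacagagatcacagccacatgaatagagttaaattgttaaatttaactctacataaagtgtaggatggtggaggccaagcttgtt
The motif began 45 bases before the start in Vpreb3, 130 before it in Blnk and 48 before it in Cd22. These matches describe the letters of the windows and not binding.

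The cell line libraries differed among themselves in these genes. Cell line replicate 3 was below replicate 2 for all 30 genes, with a median ratio of 0.565 and a range from 0.359 for Cd72 to 0.800 for Blnk. Over the 12834 genes with at least 20 counts in these libraries together, the median ratio was 1.0 and the quartiles were 0.941 and 1.05. A ratio at or under 1/1.5 was seen for 27 of the 30 genes, against 6.14% of those genes, and the opposite ratio of 1.5 or more was seen for 1.66% of them. The 95% exact binomial (Clopper-Pearson) interval lay below 1 for 27 genes, and the share of all genes with such an interval is not given here. The 3 others were Ighg1, Blnk and Vpreb3, with ratios of 0.598 (0.305 to 1.14), 0.800 (0.610 to 1.05) and 0.563 (0.202 to 1.47). This compares 1 library with 1 library, so it describes these libraries and not a condition.

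Added together, the 30 genes held 9114 counts in cell line replicate 2 and 5805 in replicate 3, a scaled ratio of 0.583 (95% interval 0.564 to 0.602). Ighm and Igkc held most of these counts. Ighm gave 0.585 (0.553 to 0.618) and Igkc 0.583 (0.542 to 0.628), the most precise values. By role, the ratios ran from 0.511 to 0.747 for receptor genes, from 0.421 to 0.673 for switched and secreted immunoglobulin, and from 0.505 to 0.643 for transcription factors. They ran from 0.457 to 0.800 for signalling proteins and from 0.359 to 0.663 for surface molecules. Counting error is part of these ranges, and the interval of every gene except Blnk held 0.583. The lowest ratio, of Cd72, rested on 28 and 11 counts, with an interval of 0.161 to 0.745.

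Replicate 1 against replicate 2 gave a different picture. The median ratio of the 30 genes was 1.04, with a range from 0.748 for Vpreb3 to 1.57 for Blk, and all genes had a median of 1.0 with quartiles of 0.745 and 1.36. Replicates 2 and 3, the most alike over all genes, thus lay further apart in the B and plasma cell genes than replicates 1 and 2 did.

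**Figure D3:**
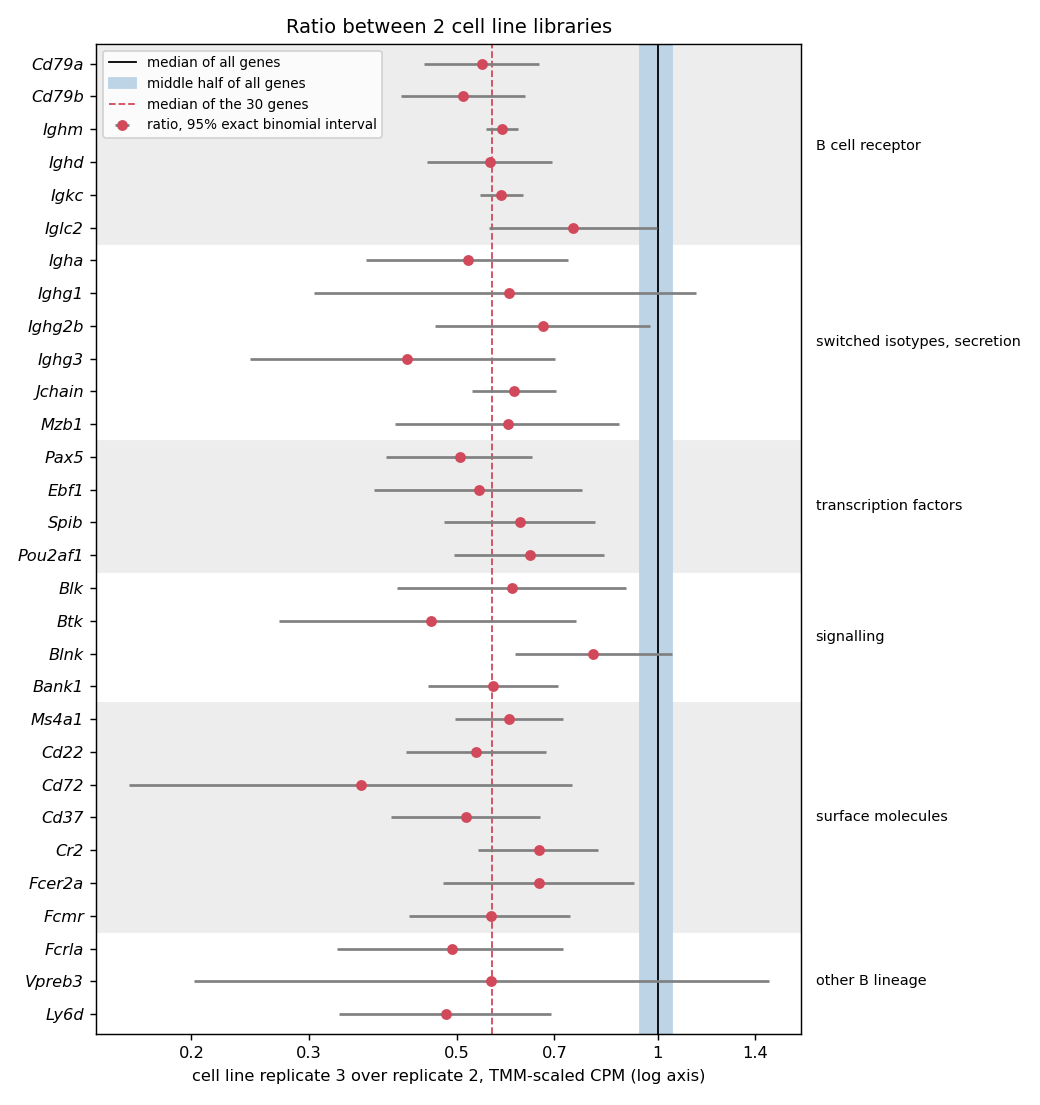
Ratio of cell line replicate 3 to replicate 2 for each gene on a log axis, with 95% exact binomial intervals. All 30 points are below 1 and gather around the dashed line at their median of 0.565, left of the blue band from 0.941 to 1.05 that holds the middle of all genes.

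Immunoglobulin transcripts were also described by form. The annotation holds Ighm as a transcript of 4 exons and another of 6 exons. The secreted form of IgM lacks the membrane exons, and the membrane form carries them. The transcript of 4 exons took 56.4%, 65.6% and 57.3% of Ighm counts in lung and 72.2%, 72.5% and 72.4% in the cell line. The groups did not overlap, and the means were 59.8% ± 5.07 (SD, n = 3) and 72.4% ± 0.153. An exact two-sided permutation test gave p = 0.1, the smallest that 3 against 3 samples allows. In lung the highest share was in replicate 2, the sample that deviated by transcript length. The transcript of 4 exons is the shorter, at 1493 against 1698 bases. The part of length in this share was not tested.

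Other proportions within the immunoglobulin genes varied in lung and varied less in the cell line. Igha counts were 24.1%, 6.44% and 12.5% of Ighm counts in lung replicates 1, 2 and 3, and 2.66%, 2.92% and 2.60% in the cell line. Ighg2b counts were 11.5%, 2.02% and 4.27% of Ighm counts in lung, and 1.89%, 2.22% and 2.55% in the cell line, so lung replicate 2 fell within the cell line range. The kappa share of light chain constant counts was 87.9%, 85.7% and 83.5% in lung and 86.8%, 88.5% and 86.8% in the cell line. Kappa is the common light chain of the mouse, and its share overlapped between the groups.

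Variable segments, which each B cell joins to its own constant region, were counted apart from the 30 genes. The summed level of heavy chain variable (Ighv) segments was 75.5, 136 and 84.8 CPM in lung and 47.4, 47.8 and 25.9 CPM in the cell line. For kappa variable (Igkv) segments it was 111, 247 and 118 CPM in lung and 63.1, 59.0 and 38.2 CPM in the cell line. Lung was above the cell line in each case, by ratios of means of 2.45 and 2.97, near those of Ighm and Igkc at 2.77 and 2.85. The ratio of cell line replicate 3 to 2 was 0.542 (0.484 to 0.607) for Ighv and 0.647 (0.587 to 0.712) for Igkv.

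Many segments were present in the cell line libraries. Of 102 Ighv symbols, 64, 61 and 50 had at least 3 counts in cell line replicates 1, 2 and 3, against 78, 84 and 68 in lung. Of 106 Igkv symbols, the numbers were 66, 57 and 49 in the cell line and 74, 87 and 73 in lung. The total counts behind these numbers were lower in the cell line, at 492 to 1016 for Ighv and 725 to 1353 for Igkv, against 1633 to 3074 and 2275 to 5586 in lung. In the cell line the leading Ighv segment was Ighv1-64 in all 3 libraries, with 16.0%, 15.6% and 14.4% of Ighv counts, and the leading Igkv segment was Igkv4-53, with 10.3%, 11.6% and 9.79% of Igkv counts. In lung the leaders differed: Ighv1-26 held 21.7% of Ighv counts in replicate 1, while Ighv1-64 led in replicates 2 and 3 with 12.5% and 11.0%. Igkv5-48, Igkv1-110 and Igkv6-15 led the Igkv counts of lung replicates 1, 2 and 3, with 19.6%, 16.2% and 9.98%.

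Usage was more alike between cell line libraries than between lung samples. Across 100 Ighv symbols, Pearson's r of the shares was 0.946 to 0.959 between cell line libraries and 0.548 to 0.865 between lung samples. Across 100 Igkv symbols it was 0.947 to 0.962 between cell line libraries and 0.374 to 0.637 between lung samples. These are descriptions across segments, which share sequence and a library, and they were computed after the data had been seen.

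**Figure D4:**
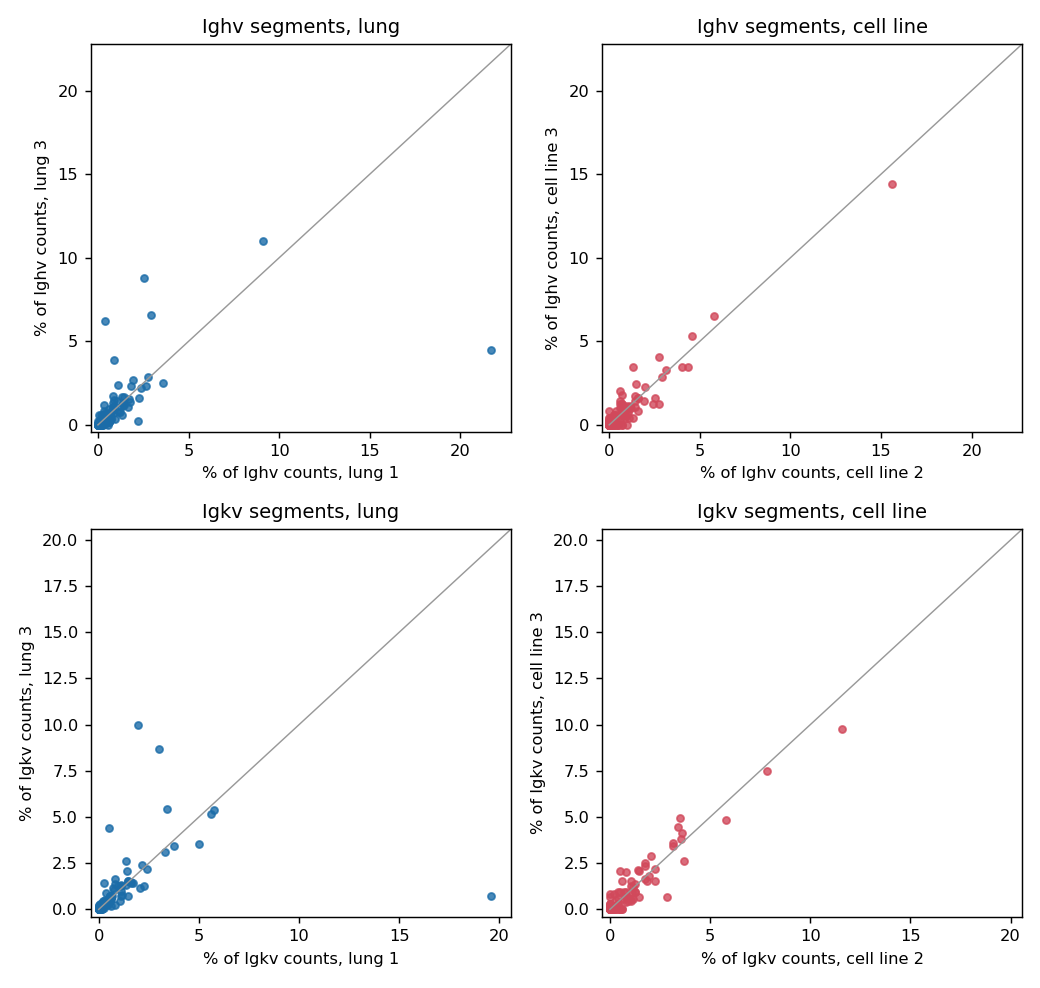
Share of each variable segment among the Ighv counts (top) or Igkv counts (bottom), in percent, for lung replicate 3 against lung replicate 1 (left, blue) and cell line replicate 3 against replicate 2 (right, red), 1 point per segment, with the line of equal shares. Cell line points follow the line, and in lung single segments such as Ighv1-26 at 21.7% and Igkv5-48 at 19.6% of replicate 1 leave it.

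Transcripts of 2 of the 30 genes had 50 or more counts in every lung sample and 0 in every cell line library. The 729-base transcript of Vpreb3 had 66.3, 112.5 and 101 estimated counts in lung, or 47.7%, 61.8% and 72.2% of the gene, while all 12, 13 and 8 counts of the cell line fell on the 625-base transcript. No fold is given for the longer transcript, because an estimate of 0 depends on the split of reads between transcripts. For Vpreb3 as a whole the ratio of group means was 12.05. A 15-exon transcript of Cd22, annotated as a target of nonsense-mediated decay, had 209, 218 and 131 estimated counts in lung. Cd22 as a whole had 232, 188 and 110 counts in the cell line, and its ratio of group means was 3.55. A transcript past both count limits was found for 339 of 12548 genes that had 8 or more counts in each cell line library (2.70%). Other transcripts of the 30 genes were at 0 in the cell line with fewer counts in lung. The minimums were chosen after the values were seen, and the split between transcripts of a gene is an estimate.

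Further genes of the pathway were taken from lists outside the 30. Of 16 other genes of receptor signalling, 15 rose and 0 fell, with a median log2 fold change of 2.13. Lyn, the kinase that starts receptor signalling and is also a myeloid gene, averaged 117 ± 15.7 CPM in lung against 22.6 ± 2.80 CPM in the cell line, with a log2 fold change of 2.38. Cd81, a widely expressed tetraspanin, averaged 262 ± 26.02 and 136 ± 6.47 CPM, with a log2 fold change of 0.95.

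Of 14 other genes of B cell identity and antigen presentation, 12 rose and 0 fell, with a median of 2.14. The most abundant of those that rose, by mean CPM over all samples, were Ciita, the master regulator of MHC class II, and H2-Ob, which limits peptide loading in B cells. Their log2 fold changes were 3.12 and 2.44. Of 4 germinal centre genes tested among 6, 1 rose, a share near the 31.3% of all genes tested. It was Gcsam, a germinal centre signalling adaptor, with a log2 fold change of 4.50. Of 15 plasma cell genes tested, 6 rose and 0 fell, also near the share of all genes, and the median was -0.10, against 0.08 over all genes tested. Of those 6, Xbp1, a factor of the secretory programme in many cells, rose by 1.29 and Cd38, an ectoenzyme of many leukocytes, by 2.74. Xbp1 was at 225, 312 and 260 CPM in lung and at 188, 70.8 and 67.4 CPM in cell line replicates 1, 2 and 3. Its cell line mean thus joins unlike replicates. Sdc1, the plasma cell surface marker that epithelial cells also express, averaged 313 ± 47.3 CPM in lung against 407 ± 92.7 CPM in the cell line and did not pass the test (edgeR adjusted p = 0.301, named after its values were seen).

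The 2 early B lineage genes tested among 7, Il7r and Dntt, rose by 3.61 and 3.64, from 100 and 4 counts over the cell line. Of 7 tested genes for factors and receptors acting on B cells or antibody, 6 rose. Among these were Tnfsf13b, the B cell survival factor BAFF, by 5.92, and Pigr, which carries IgA across epithelium, by 10.15 from 2 counts over the cell line. The other constant genes tested, 3 of 4, all rose, with Ighg2c at 1.25 and Iglc1 at 1.51.

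Markers of other cell types moved in the same comparison, and their part in the B and plasma cell values was not tested. All 18 T cell genes rose, with a median log2 fold change of 3.31. Of 8 natural killer cell genes 7 rose (median 4.50), of 13 monocyte and macrophage genes 12 rose (5.22), and all 6 tested neutrophil genes rose (5.88). Of 8 plasmacytoid dendritic cell genes 7 rose and Runx2 fell (median 3.27), and of 8 other dendritic cell genes 7 rose and Fscn1 fell (3.62). Their summed levels were far lower in the cell line than in lung for monocyte and macrophage genes, at 139 to 260 against 7572 to 9794 CPM. Most of the cell line sum in replicates 2 and 3 was Mrc1, at 163 and 172.5 CPM there, which did not pass the test (log2 fold change -0.32, edgeR adjusted p = 0.693). For natural killer genes the sums were 5.64 to 6.86 against 67.7 to 101 CPM, and for neutrophil genes 3.37 to 5.51 against 187 to 338 CPM. Sums for plasmacytoid genes were 124 to 132 against 205 to 271 CPM, and for other dendritic cell genes 218 to 309 against 233 to 308 CPM, and these lists hold the genes that fell.

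Structural lung genes differed more. All 11 fibroblast and pericyte genes, 7 endothelial genes, 10 alveolar and airway genes and 5 red cell genes rose, with medians of 5.93, 7.18, 15.17 and 5.97. Their cell line sums were 28.6 to 35.1 CPM for fibroblast and pericyte genes against 1191 to 3147 CPM in lung, and 7.39 to 16.1 CPM for endothelial genes against 891 to 2095 CPM. Red cell genes summed to 17.3 to 28.0 CPM in the cell line and 506 to 2079 CPM in lung. The follicular dendritic cell list had 3 of 6 genes higher, with sums of 2377 to 5638 CPM in the cell line and 2052 to 2897 CPM in lung. Most of each sum was Clu, at 2139, 5360 and 5453 CPM in the cell line and 2603, 2394 and 1708 CPM in lung. Clu did not pass the test (log2 fold change -0.95, edgeR adjusted p = 0.102). In the general epithelial list Epcam rose, Krt18 fell and 3 genes did not pass the test, with a median of -0.24.

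The ratio of cell line replicate 3 to 2 was also below 1 in several of these lists. Its median was 0.574 for T cell genes, 0.566 for neutrophil genes, 0.591 for endothelial genes, 0.602 for red cell genes, 0.703 for fibroblast and pericyte genes and 0.725 for monocyte and macrophage genes. It was 0.814 for plasmacytoid and 0.772 for other dendritic cell genes, 0.844 for the follicular dendritic list and 1.28 over 3 natural killer cell genes. For general epithelial genes it was 1.01. Within the B lineage lists it was 0.772 for other receptor signalling genes, 0.676 for identity genes, 0.697 for such factors and receptors, 0.629 for other constant genes, 0.951 for plasma cell genes and 1.08 over 3 germinal centre genes.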

How the data were processed

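The authors deposited estimated counts per transcript, 1 column per sample. The submitters' processing notes name Salmon 1.4.0, FastQC 0.11.9, build GRCm39 and DESeq2 1.32.0, with roles not given in the sources used here. Per the labels' protocols, lungs were digested with collagenase and a stranded mRNA kit was used, and the same text stands on the cell line samples. Of 76776 transcripts, 76521 (99.67%) matched GENCODE M21, used for names and lengths only, and were summed to 20687 symbols. The other 255 held 0.107% to 0.416% of a sample's counts and were left out.

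Rounded sums were tested with edgeR 4.0.16 in R 4.3.3 (robust quasi-likelihood F test, TMM, filter by group). Benjamini-Hochberg adjustment was over 15212 genes, with a threshold of 0.05. The procedure was also run on simulated counts with the same dispersion for every gene. That setting is simpler than these data, and no conclusion is drawn from it. CPM are means ± SD over 3 samples per group. Ratios of cell line libraries used genes with 20 or more counts over both. The 30 genes, the other lists and the tests were chosen with earlier results of these data known. Named were all 30, from each pathway list the 2 genes past the threshold with the highest level, and genes said to be named after their values were seen. From cell type lists, genes that fell, were at 0 or were the single riser are named. Tcf7, Mrc1 and Clu were named after their values were seen, for their part in a sum. Alternatives were DESeq2 1.42.0 size factors and Wald test, limma 3.58.1 voom, library size alone, other count filters, a replicate block, immunoglobulin constant genes left out, and samples left out. Replicate numbers were checked for pairing: deviations of same-numbered samples correlated at -0.0422, 0.0822 and -0.0834. No pairing by number was seen, though 3 samples per group cannot exclude it.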

Additional observations from a re-analysis of the deposited data

How the results depend on the processing

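The number of the 30 genes higher in lung was 29 with DESeq2 size factors, library size alone, the DESeq2 Wald test, limma-voom and the fit with the replicate number as a block, whose pairing the data did not bear out. The shares of all genes called higher in these fits were 31.2%, 34.2%, 32.5%, 31.4% and 30.5%. It was 28 with no filter on low counts (25.3% of all genes), 28 of 29 tested with 10 or more counts in all 6 samples, a filter that dropped Vpreb3 (21.3%), 28 without cell line replicate 1 and lung replicate 2 together (43.2%), and 22 of 22 with immunoglobulin constant genes left out (31.5%). Library size alone moved the median log2 fold change of all genes from 0.08 to 0.31, a shift of 0.23. Leaving out 1 sample at a time gave 18 to 28, the lowest without cell line replicate 3, where 2 cell line samples remain, and the cause was not tested. Over 441 fits of single genes, 0 reversed and 27 lost the call, in 11 genes: Ighg3, Pax5, Blk, Bank1, Cr2, Blnk, Ighm, Igkc, Iglc2, Jchain and Mzb1. Under each of these settings 0 of the genes were called lower. The ratio of summed levels, 3.14, ran from 2.40 to 3.66 over the settings tried. The median ratio of cell line replicate 3 to 2, 0.565, was 0.559 to 0.567 under other scalings and count minimums, while replicate 1 to 2 gave 1.04. Depth limited Vpreb3, Cd72 and Ighg1 in the cell line, where a library held 8 to 35 counts of each.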
